A study of Cynodon dactylon with 6 samples.

Results

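Leaves of bermudagrass seedlings that had spent 2 h at 42 °C were compared with leaves of control seedlings. Bermudagrass (Cynodon dactylon) is a warm-season turf and forage grass that fixes carbon by the C4 pathway. The seedlings were 10 days old and of the genotype labelled WT. The comparison uses 4 of the 6 RNA-sequencing libraries of the study, chosen by their labels: 2 of leaves heated for 2 h and 2 of control leaves labelled 0 h. The other 2 libraries, of leaves heated for 12 h, serve for the spread between replicates and for later levels. Of 111743 unigenes, the gene-level units to which the authors had assigned reads, 25828 passed an abundance filter and were tested.

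Several limits come with these groups. The temperature of the control plants is not given in the sources used here, and no unheated leaves were sampled at 2 h. Heat and time since the start therefore cannot be told apart. Whether a replicate is a plant, a pool or a repeat run is not in the labels, and the p-values then rest on the spread between libraries, which may be technical. In whole leaves, fewer cells of a type and less RNA per cell cannot be told apart either.

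Plants answer a sudden rise in temperature within minutes. Heat shock transcription factors, held back by chaperones in unstressed cells, are released when proteins unfold, and they switch on genes for chaperones such as HSP101, HSP90, HSP70 and the small heat shock proteins. In leaves the transcripts for light harvesting and carbon fixation normally take up much of the messenger RNA. The tables carry unigene IDs without names or sequences, so no unigene below is assigned to these families, and the leaf label could not be checked against marker genes. The response is described by unigene, level, size of change and length.

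The heated libraries held 7209018 and 7364816 assigned reads, and the controls 9086743 and 6313500. The tested unigenes took 99.1% to 99.3% of the reads of these libraries. Log2 levels (CPM, counts scaled to library total and by trimmed mean of M-values, TMM) correlated at r = 0.972 between the heated libraries, at 0.975 between the controls and at 0.909 to 0.921 between a heated library and a control. They are taken over unigenes, and unigenes are no replicates of each other. The scaling factors were 0.853 and 0.905 for the heated libraries and 0.870 and 0.850 for the controls, so scaling to library totals alone shifted the median log2 fold change over all tested unigenes only from 0.00 to 0.03.

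After 2 h a sizeable share of the leaf's reads fell on other unigenes than in the controls. The share of reads that would have to be moved to turn one library's distribution over unigenes into another's was 20.6% to 22.9% in the 4 pairs of a heated library with a control. It was 7.32% between the 2 heated libraries and 4.81% between the 2 controls. All 4 pairs of a heated library with a control thus lay at least 2.82 times as high as either replicate pair. With 2 libraries against 2 there are 6 possible splits, and an exact two-sided permutation test cannot give a p below 0.333, so no test is given for such library values.

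**Figure D1:**
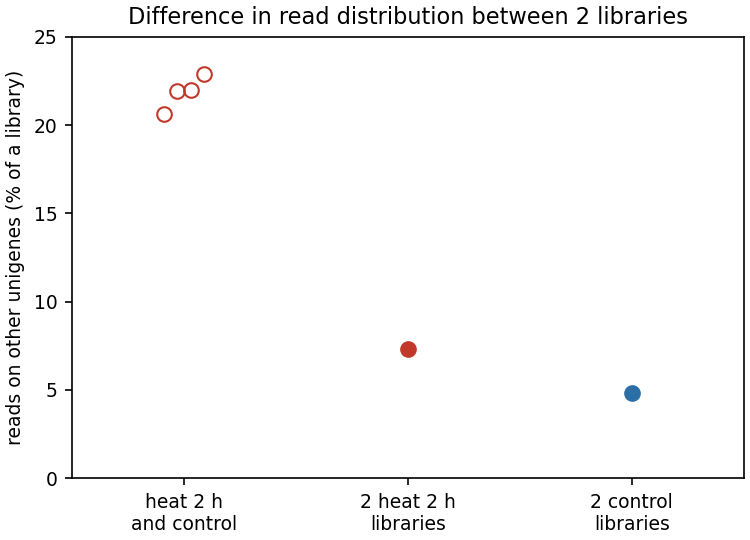
Share of reads (percent of a library, y axis) that falls on other unigenes in one library than in another, with 1 point per pair of libraries: 4 pairs of a heat 2 h library with a control, the pair of heat 2 h libraries and the pair of controls. The pairs across groups lie between 20.6% and 22.9%, above 7.32% within heat and 4.81% within control.

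The difference between the mean profiles of the 2 groups amounted to 21.3% of reads gained by some unigenes and lost by others. The loss was carried by fewer unigenes than the gain. The 132 largest losers accounted for 50% of all reads lost, while 240 unigenes accounted for 50% of the reads gained. For 25% the numbers were 21 losers and 42 gainers, and the 10 largest of each held 16.3% of the loss and 12.4% of the gain. Of the 100 largest gainers 88 were called higher and 71 of these by at least 2-fold, and of the 100 largest losers 86 were called lower and 56 by at least 2-fold. These were picked by the difference itself, so the counts are descriptive.

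In the test across all unigenes, rises and falls were about equal in number, and large changes were more often rises. After 2 h 3706 unigenes were higher and 3719 lower, which is 14.3% and 14.4% of those tested and 28.7% together (edgeR's quasi-likelihood F test with a Benjamini-Hochberg adjusted p below 0.05 over all tested). Which direction was the more numerous followed the scaling, with 3821 rises and 3410 falls by library totals alone and 3598 and 3836 with DESeq2 size factors in edgeR. The libraries of the 2 groups did not overlap for any of the 7425 called unigenes, but they did not overlap for 65.4% of all tested unigenes either, among them 9466 of the 18403 not called. Changes of at least 2-fold made up 8.35% of tested unigenes on the higher side and 6.14% on the lower, with 2156 and 1585 unigenes. Asked of every single pair of a heated library with a control, a 2-fold difference held in all 4 pairs for 1601 of the called rises and 1036 of the called falls, and a 4-fold difference for 534 and 158. Between the 2 heated libraries 2.77% of tested unigenes stood 2-fold apart and between the 2 controls 1.79%, against 13.9% to 16.9% in the pairs across groups (on CPM + 1).

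**Figure D2:**
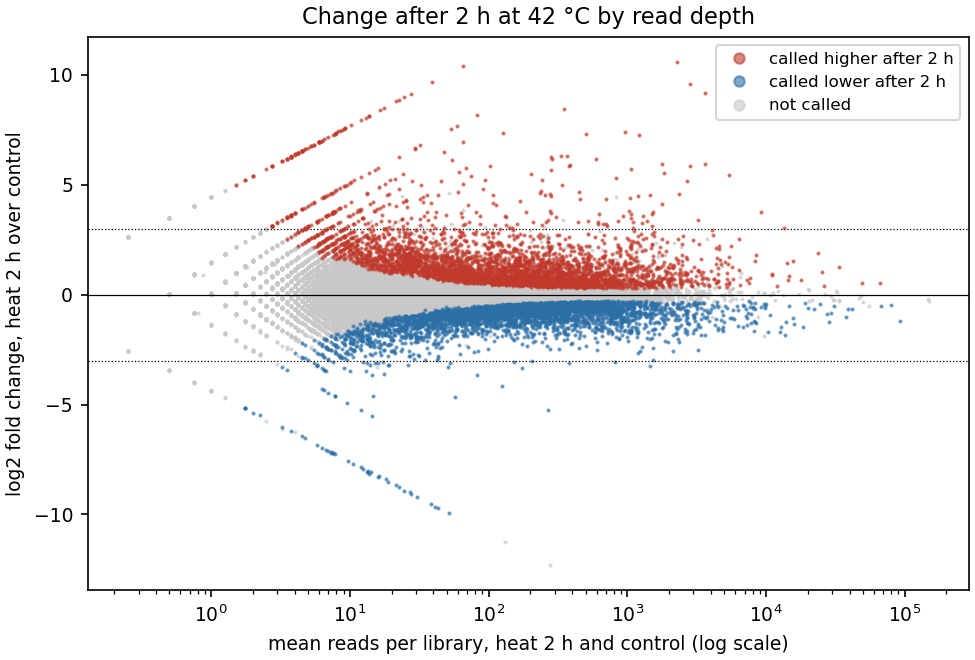
Log2 fold change of heat 2 h over control (y axis) against the mean reads per library over the 4 libraries (x axis, log scale) for the 25828 tested unigenes, with called rises, called falls and unigenes not called in separate colours and dotted lines at 8-fold. Points beyond 8-fold with more than 100 reads lie mostly above the zero line: 84 called rises against 7 called falls.

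Calls became more frequent with depth. Of unigenes with up to 30 mean reads 13.7% were called, of those with 30 to 100 reads 26.8%, with 100 to 300 reads 39.9%, with 300 to 1000 reads 51.0% and with over 1000 reads 64.7%. The median size of a called change was 2.01 on the log2 scale in the shallowest class and 0.88 in the deepest. The median standard error of the log2 fold change was 0.53 and 0.12 in these classes. A unigene not called in the shallow classes may therefore have changed without this being detectable at its depth. With TMM scaling 882 were higher and 532 lower in the shallowest class. Above 100 reads falls were the more numerous, with 964 rises against 1062 falls at 100 to 300 reads, 677 against 928 at 300 to 1000 and 348 against 375 over 1000. Over all unigenes the more numerous direction followed the scaling, and the classes were not recounted under other scalings.

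Changes of 8-fold or more at high read counts were mostly rises. Changes of at least 8-fold were called for 351 rises, 1.36% of those tested, and 86 falls, 0.333%. With over 100 mean reads there were 84 such rises against 7 falls, and with over 1000 mean reads 30 against 1. The limits of 100 and 1000 reads were chosen with results in view. Over 16 other settings, which leave out libraries or change scaling, filter, unit or tool, the first pair ranged from 71 to 98 rises and from 6 to 10 falls. The 30 deep rises ran from 8.17-fold to 1541-fold in the fit, with a median of 19.0-fold. Each had at least 6 reads over both controls, the least of them at the largest fold. Some of the 30 belong to the same component, a group of unigenes that share sequence in the assembly. They may share reads and are not independent, and the 16 settings hold no sum by component.

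**Figure D3:**
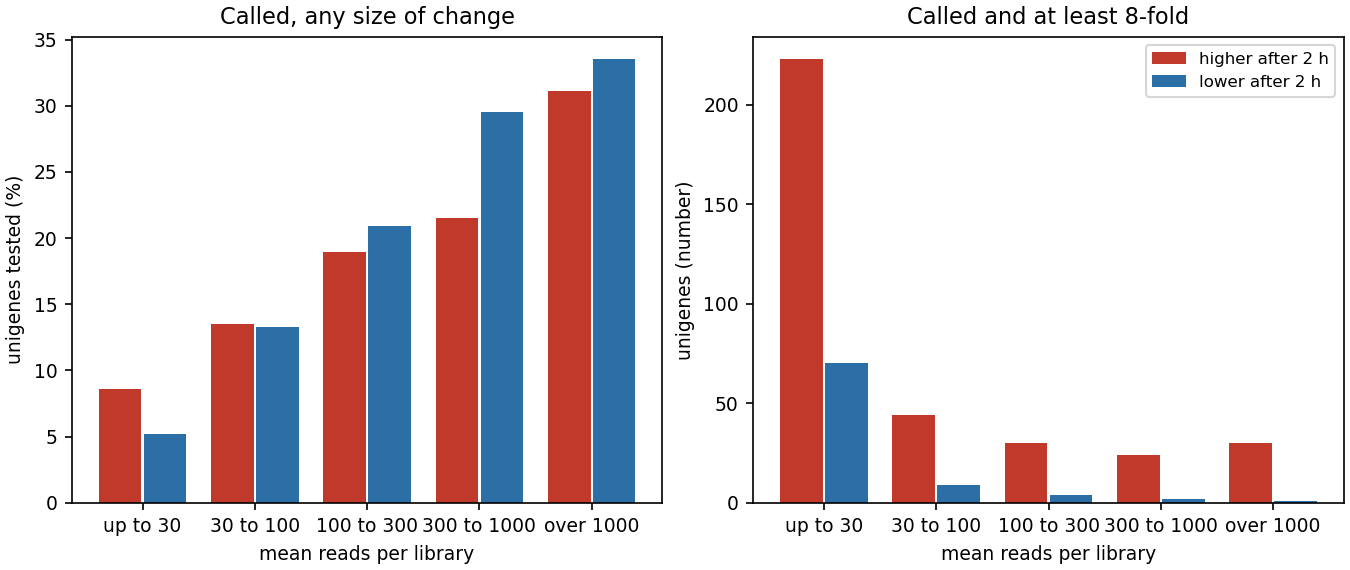
Percent of tested unigenes called higher or lower after 2 h (left) and number called with a change of at least 8-fold (right), by mean reads per library. The share called rises with depth to 64.7% in total over 1000 reads, and at 8-fold rises outnumber falls in all 5 classes, from 223 against 70 to 30 against 1.

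The same 30 unigenes reached high levels per length. Their median level after 2 h was 472 FPKM (the authors' values, scaled to length and library total) and ranged from 105 to 4161 FPKM, while in the controls the median was 19.1 FPKM and the range 0.360 to 512 FPKM. Together they took 2.13% and 1.85% of the reads of the heated libraries, against 0.111% and 0.121% in the controls. In the first heat replicate 28 of the 30 stood higher than in the second, and so did 66 of the 84 rises with over 100 reads. The largest losses in CPM described below also stood higher in the first heat replicate. Of the 7 falls of at least 8-fold with over 100 reads, 3 did. What lay behind the gap was not tested. The share of all tested unigenes that stood higher in that replicate is not given here. For these rises both heated libraries lay above both controls. Lengths implied by count and FPKM ran from 254 to 2896 bases in these 30, with a median of 1205.

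Of the 100 unigenes with the highest FPKM after 2 h, 73 were also among the 100 highest in the controls. Only 4 came from beyond rank 1000 of the controls, and none of the controls' 100 highest fell beyond rank 1000 after 2 h. These 4, picked by level after 2 h, serve as examples and are given without a test. The first stood at 2501 and 2209 FPKM after 2 h and at 51.9 and 51.7 FPKM in the controls. The second had 1964 and 1634 FPKM in heated leaves and 105 and 114 FPKM in controls, at an implied length of 254 bases. The third had 1356 and 936 FPKM after heat and 54.3 and 53.6 FPKM in controls. The fourth had 1187 and 712 FPKM after heat and 19.7 and 22.3 FPKM in controls, and the gap between its heated libraries was the widest of the 4.

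Of the 10 largest gains in reads, 6 were of unigenes that were already common before heat and 4 of unigenes that started lower. Those named here had the largest gain or loss in mean CPM among unigenes that were called, changed at least 2-fold and did not overlap between groups. Unigene c85102_g1 stood at 8298 and 6531 CPM after 2 h, against 2992 and 3234 CPM in the controls. Both heated libraries thus lay far above both controls, with a wider gap between them than between the controls. The log2 fold change of c85102_g1 was 1.25 ± 0.14 (SE; edgeR adjusted p = 4.08e-05). On the per-length scale c85102_g1 averaged 4384 ± 578 FPKM after heat and 1882 ± 68.5 FPKM in controls (SD, n = 2 each).

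Unigene c84405_g2 had 6439 and 5238 CPM in heated leaves, against 1517 and 1643 CPM in control leaves. Its rise was 1.89 ± 0.14 on the log2 scale (SE; edgeR adjusted p = 1.32e-06). The ninth largest gain was of the other tested unigene of its component, which had 2331 and 1803 CPM after heat and 582 and 619 CPM in controls, a rise of 1.78 ± 0.15 on the log2 scale (SE; edgeR adjusted p = 4.00e-06). Unigenes of a component share sequence in the assembly and may share reads, so these rises are not independent.

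The further large gains fall into 2 kinds, unigenes raised 2- to 3-fold from a high level and unigenes raised from a low one. Among those above the limit, the fourth gain had 5855 and 4714 CPM after heat and 2453 and 2776 CPM in controls. It rose by 1.02 ± 0.23 on the log2 scale (SE; edgeR adjusted p = 0.0159). That call was lost in 7 of 17 other settings, with adjusted p from 0.0557 to 0.262 in those and from 2.67e-05 to 0.262 over all. The sixth had 3875 and 3428 CPM after heat, against 1208 and 1333 CPM in controls, and the seventh 3499 and 3001 CPM against 1099 and 1332 CPM. Among those below the limit, the third gain had 4173 and 3417 CPM after heat and 441 and 489 CPM in controls. At a mean of 512 FPKM in controls its starting level was not low. The fifth had 2676 and 2690 CPM against 189 and 202 CPM, a rise of 3.78 ± 0.13 on the log2 scale (SE; edgeR adjusted p = 5.82e-09), with the closest heated replicates of the 10 gains. The eighth, also the first of the newcomers by FPKM above, had 1798 and 1521 CPM against 37.9 and 38.7 CPM, 43.4-fold higher. The tenth had 1799 and 1600 CPM after heat and 298 and 288 CPM in controls. Of these 10 gains, 9 were higher in the first heat replicate than in the second, the exception being the fifth. All 10 losses described below were higher in the first heat replicate too.

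**Figure D4:**
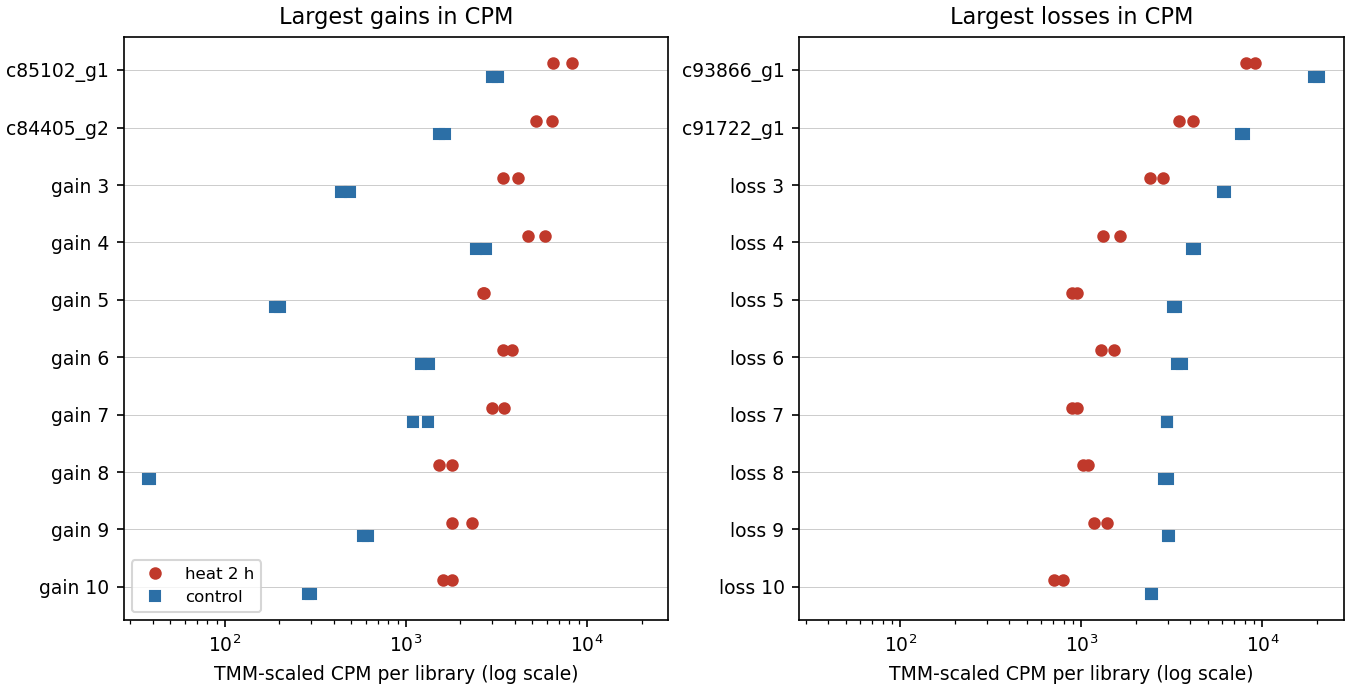
TMM-scaled CPM (x axis, log scale) in each heat 2 h library (circles) and each control library (squares) for the 10 unigenes with the largest gain and the 10 with the largest loss in mean CPM. No row has overlapping groups, gains 3, 5, 8 and 10 start from under 500 CPM in controls, and the losses keep at least 705 CPM after heat.

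The largest losses came from abundant transcripts of the control leaf, which stayed abundant after heat. Only a unigene with a high control level can lose many CPM, so the ranking itself picks abundant transcripts. Unigene c93866_g1 had 9040 and 8066 CPM after 2 h, against 19311 and 20514 CPM in the controls. On the log2 scale c93866_g1 changed by -1.22 ± 0.12 (SE; edgeR adjusted p = 1.23e-05). Its mean dropped by 11359 CPM, the largest difference in CPM among the unigenes eligible for naming. Per length c93866_g1 averaged 2262 ± 93.7 FPKM after heat and 5193 ± 140 FPKM in controls (SD, n = 2 each), at an implied length of 3272 bases. Unigene c91722_g1 had 4142 and 3466 CPM in heated leaves and 7630 and 7935 CPM in controls, and changed by -1.03 ± 0.12 on the log2 scale (SE; edgeR adjusted p = 5.17e-05).

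The next 8 losses had 705 to 2822 CPM in the heated libraries and 2438 to 6173 CPM in the controls. Their log2 fold changes ran from -1.22 to -1.83. The third loss had 2822 and 2401 CPM after heat, against 6173 and 6022 CPM in controls. The fourth and the sixth belong to one component and had 1643 and 1310 CPM and 1520 and 1284 CPM after heat, against 4224 and 4093 CPM and 3369 and 3594 CPM in controls. The fifth fell most within this set, to 946 and 888 CPM in heated leaves, against 3316 and 3222 CPM in control leaves (log2 fold change -1.83 ± 0.11, SE; edgeR adjusted p = 2.36e-07). All 10 losses thus lay between 2.05-fold and 3.56-fold lower, a narrower band than the gains, which ran from 2.02-fold to 43.4-fold. Gains ranked by CPM can start from any level and losses cannot, so the ranking bears on these bands and they are descriptive.

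By size of change, the called rises took 30.9% ± 0.449 of the reads after heat and 14.5% ± 0.4998 in the controls (SD, n = 2 each). Most of that lay in the moderate rises: the 1550 unigenes raised under 2-fold took 15.8% ± 0.0838 after heat and 10.1% ± 0.252 in controls, and the 1325 raised 2- to 4-fold took 9.86% ± 0.0598 and 3.74% ± 0.205. The 480 raised 4- to 8-fold took 2.70% ± 0.0716 after heat and 0.509% ± 0.0350 in controls. The called falls took 22.4% ± 0.563 after heat and 39.5% ± 0.403 in controls, of which the 2134 lowered under 2-fold held 16.3% ± 0.380 and 24.3% ± 0.138 and the 1284 lowered 2- to 4-fold held 5.89% ± 0.180 and 14.4% ± 0.241. The 215 lowered 4- to 8-fold held 0.150% ± 0.00217 after heat and 0.733% ± 0.0169 in controls. Unigenes not called held 45.9% ± 0.908 and 45.2% ± 0.0524. The classes were formed by the change itself, so these shares describe where the reads lay and are not a further test.

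Some unigenes were found in 1 group alone. With at least 10 reads in each heated library and none in a control there were 31 unigenes, all called higher, and 30 of them had reads in both 12 h libraries. In the opposite case, 10 or more reads in both controls but none after 2 h, there were 29, of which 27 were called lower and 28 had no read at 12 h either. The choice of 0 reads in one group largely fixes these calls, which are a description. The counts depended on the limit: with at least 5 reads there were 143 heat-only and 73 control-only unigenes, and with at least 3 reads 367 and 218, of which 72 and 37 were called. At that lowest limit 109 of the 218 control-only unigenes had no read at 12 h. The reads of the 31 heat-only unigenes stood at 1.09 to 1 between the first and second heat replicate, close to the library totals at 0.979 to 1. The reads of the 29 control-only unigenes stood at 2.74 to 1 between the first and second control, against 1.44 to 1 for the totals. The part of the first control library in the control-only set was not tested.

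The most abundant of the heat-only unigenes had 170 and 91 reads after 2 h and none in the controls, which with a floor of 3 reads over the control group makes it at least 91.9-fold higher. The next had 92 and 64 reads, at least 54.9-fold higher. In the control-only set the most abundant had 870 and 230 reads in the controls and none in 4 heated libraries, at an implied length of 144 bases, and was not called (edgeR adjusted p = 0.171). The next had 433 and 94 control reads at 126 bases and was not called either (edgeR adjusted p = 0.194). For both the controls themselves differed by far more than their library totals. Of the 351 rises of at least 8-fold, 74 had no control read and 123 had 1 to 3; set to their bound of 3 reads, 311 still reached 8-fold, with a median log2 change of 3.66 in place of 4.21. Of the 86 falls, 41 had no read after heat and 22 had 1 to 3, and 75 still reached 8-fold, with a median size of 3.41 in place of 5.15.

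Most of the 100 most abundant unigenes were called after 2 h, and the balance of rises and falls followed the choice of ranking. Ranked by CPM at 12 h, a group outside this comparison, 48 of the top 100 were higher after 2 h and 19 lower, and the median log2 fold change was 0.34, with quartiles at -0.21 and 0.90. Of the next 900 on that scale 284 were higher and 203 lower, with a median of 0.11, and beyond rank 1000 the medians were 0.00. Called unigenes made up 67.0% of the top 100, 54.1% of the next 900, 41.3% of the next 9000 and 19.9% beyond. Ranked by control CPM, 14 of the top 100 were higher and 55 lower, with a median of -0.46, and ranked by the 2 h libraries 42 were higher and 26 lower, with a median of 0.13. Ranking by a group of the comparison favours that group being the higher, and ranking by the 12 h libraries favours unigenes that heat had raised by then. By these rankings and by FPKM at 12 h, 61.0% to 69.0% of the top 100 were called. Of all unigenes with over 1000 mean reads 64.7% were called, so these shares are not read as a trait of abundant transcripts. In the top 100 by CPM at 12 h, 23 rises and 6 falls were of at least 2-fold.

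Called rises had a shorter median implied length than called falls at each depth. Length here is the length implied by count, FPKM and library total. Of values from at least 100 reads, 96.0% lay within 10% of the unigene's median, and values from fewer reads were not checked. Implied lengths went as low as 5.18 bases in a shallow unigene, so they are not taken as full unigene lengths. The median was 585 bases for rises, 725 for falls and 680 for unigenes not called among those with up to 30 mean reads. It was 1011 for rises, 1081 for falls and 1091 for uncalled unigenes at 30 to 100 reads, and 1345, 1477 and 1450 at 100 to 300 reads. At 300 to 1000 reads it was 1610 for rises, 1665 for falls and 1814 for uncalled unigenes, and over 1000 reads 1496, 1810 and 1804. The quartiles of these groups overlap widely in every class. Rises of at least 2-fold had a shorter median than those under 2-fold in all 5 classes, and so had falls of at least 2-fold against falls under 2-fold. In the shallowest class only 9 rises and 13 falls were under 2-fold, against 873 and 519 of at least 2-fold. At 100 to 300 reads the medians were 1097 and 1517 bases for rises and 1463 and 1478 for falls, and at 300 to 1000 reads they were 1437 and 1692 for rises and 1444 and 1739 for falls. These medians are over unigenes, which are not replicates, so no test is given.

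**Figure D5:**
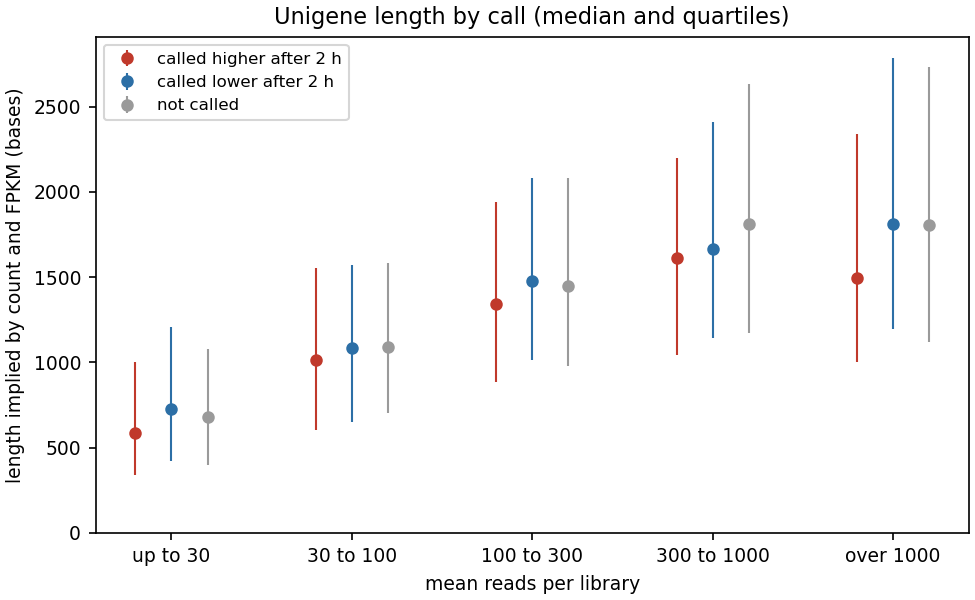
Length implied by count and FPKM (bases, y axis) for unigenes called higher, called lower and not called after 2 h, by mean reads per library; points are medians and bars run between the quartiles. In all 5 depth classes the median of the rises lies below that of the falls, with wide overlap of the quartiles.

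Unigenes of one component moved in the same direction more often than not. The tested set held 5481 pairs of unigenes from the same component, in 3517 components. In 64.3% of these pairs both log2 fold changes had the same sign, against 49.9985% over all pairs of tested unigenes. Where both members were called, 292 pairs rose together, 244 fell together and 84 moved in opposite directions, so that 86.5% had the same sign, against 49.99% over all pairs of called unigenes. With at least 2-fold changes in both members, 22 of 302 pairs were opposite. Among the 794 pairs with over 100 mean reads in both members the same sign held in 71.2%, and of 81 with 2-fold changes in both 1 was opposite. Reads shared between similar sequences also give a like direction, and their part was not tested.

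The FPKM values come from the same reads as the counts, so their direction is no independent check. Mean FPKM was higher after heat for 3696 of the 3706 called rises and lower for 3710 of the 3719 called falls, and it had the direction of the counts for 17129 of the 18403 unigenes not called. The called rises had a median level of 19.3 FPKM after heat and 8.27 FPKM in controls, and the falls 11.9 and 21.2 FPKM. At 100 FPKM or more stood 481 of the rises after heat and 220 in controls, and 233 of the falls after heat and 473 in controls. Rises of at least 8-fold had a median of 11.1 FPKM after heat and 0.355 FPKM in controls, and 58 of them passed 100 FPKM after heat. Falls of at least 8-fold had a median of 0.0725 FPKM after heat and 5.75 FPKM in controls, where 7 of the 86 passed 100 FPKM.

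The calls were not equally firm. Leaving out in turn each of the 4 libraries compared, 1713 rises and 1686 falls were called in the same direction every time, which is 46.2% and 45.3% of them. Among changes of at least 2-fold these were 1256 rises and 939 falls, 58.3% and 59.2%, and among those of at least 8-fold 248 and 62, 70.7% and 72.1%. Asked of 16 other settings together, DESeq2 and limma included and an untested unigene taken as not called, 1043 rises and 963 falls were called every time, 28.1% and 25.9%. Of those of at least 8-fold 165 rises and 26 falls were, 47.0% and 30.2%. Without the first control library 2049 were higher and 2055 lower, the fewest calls of these fits, and without the second heated library 2737 were higher and 2210 lower. No called unigene changed sign in any of these 4 fits.

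Levels at 12 h of heat are given beside those at 2 h, with the same controls. The 3706 rises at 2 h took 14.5% ± 0.4998 of the reads in controls, 30.9% ± 0.449 at 2 h and 29.4% ± 1.26 at 12 h (SD, n = 2 each). The 3719 falls took 39.5% ± 0.403 in controls, 22.4% ± 0.563 at 2 h and 20.1% ± 0.102 at 12 h. Shares of reads are of library totals, without TMM scaling. That of the rises at 12 h includes the third largest gain, the most abundant unigene there. In the scaled fit the median log2 fold change against controls was 1.16 at 2 h and 0.78 at 12 h for the rises. For the falls it was -0.90 and -0.91. Both sets were picked by the change at 2 h, and both contrasts share the controls. Of the 84 rises of at least 8-fold with over 100 reads, 74 were called lower at 12 h than at 2 h and 3 higher (edgeR, adjusted p below 0.05). These 84 were picked by high values in the 2 h libraries, which that contrast shares, so the choice favours a fall. The shares over all tested unigenes are not given here, and the counts are descriptive. At 12 h 79 of the 84 had a higher mean FPKM than in the controls. FPKM is not TMM-scaled, and with scaling factors of 1.30 and 1.34 the 12 h libraries stand higher by FPKM than by scaled CPM. The 30 deepest took 0.116% ± 0.00732 of reads in controls, 1.99% ± 0.199 at 2 h and 4.11% ± 0.509 at 12 h. Without the unigene of the third largest gain, which is the most abundant of the 12 h libraries, the other 29 took 0.0762% ± 0.00509, 1.66% ± 0.165 and 0.474% ± 0.0783 at these times.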

How the data were processed

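Leaf RNA was sequenced in 6 libraries, 2 each for heat 2 h, heat 12 h and control; sample columns were matched by the labels. The authors deposited estimated counts per unigene, not normalized across libraries, and FPKM, which divides reads by a length for the unigene and by library total. How that length was set is not given in the sources used here. Both units are read from the column headers and the values, and 0.727% of the estimated counts above 0 carry decimals. The count sheet bears the name of another grass, but its columns carry the bermudagrass sample names, and of 670458 cells 0 were at 0 in only one of the tables. Per the submitters' processing notes HTSeq 0.6.1, DESeq 1.18.0, TopHat2 2.0.12 and Bowtie2 2.2.3 were used, with no role named. Which counter, assembler and build were used was not given in the sources used here. Unigene IDs name 96558 components.

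Estimated counts were rounded, since the planned count test needs whole numbers, and filtered with filterByExpr (minimum count 10, minimum total 15). edgeR 4.0.16 in R 4.3.3 fitted all 6 libraries with TMM scaling and robust glmQLFit, a mean per group and 3 residual degrees of freedom. The contrast was heat 2 h minus control, adjusted over 25828 unigenes at 0.05. Standard errors are the log2 fold change over the square root of F. Alternatives were other scalings and filters, DESeq2 1.42.0, limma 3.58.1 on log2(FPKM + 1) and log2(FPKM + 0.1), a fit of 4 libraries, a replicate block, sums by component, glmTreat and leaving out each library. The procedure was also run on simulated data in which far fewer unigenes changed than were called here. That run is not used to support the calls.

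Unigenes named are the 2 largest gains and 2 largest losses in mean CPM among those called, changed at least 2-fold and without overlap; the next 8 of each are described without an ID. The members, lists and limits were chosen with earlier results of these data known. Lists of heat shock, photosynthesis and other genes need names and were not used. Floors of 3 reads cover counting error only, and are taken over a group, where 3 reads correspond to 0.206 CPM in the libraries heated for 2 h and 0.195 CPM in the controls. Near-identical gene copies can share reads, which leaves the values of single unigenes uncertain.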

Additional observations from a re-analysis of the deposited data

Results flagged for a closer look

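For all 20 unigenes described by gain or loss, the heat effect at 12 h differed from that at 2 h in a test of the difference itself (edgeR, heat 12 h minus heat 2 h, in which the controls cancel). The share of all tested unigenes called in this contrast is not given here, so the count is not read as a trait of the 20. Between a 12 h and a 2 h library, 34.6% to 38.2% of all reads fell on other unigenes. No explanation was weighed.

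Among the gains, c85102_g1 changed by -2.55 on the log2 scale between 2 h and 12 h (edgeR adjusted p = 4.82e-08) and c84405_g2 by -2.17 (edgeR adjusted p = 1.32e-07). The third gain changed by 2.88, the only rise among the 20 (edgeR adjusted p = 1.98e-08). The fourth to the tenth gain changed by -3.68, -2.65, -1.93, -2.02, -2.76, -2.15 and -0.78. The adjusted p over these 7 was at most 1.80e-04 (edgeR).

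Among the losses, c93866_g1 changed by a further -1.21 (edgeR adjusted p = 5.13e-06) and c91722_g1 by -2.22 (edgeR adjusted p = 3.65e-08). The third to the tenth loss changed by -1.54, -2.50, -2.01, -2.25, -2.12, -2.01, -1.69 and -1.38, with an edgeR adjusted p of at most 9.73e-07. All 10 losses were thus lower still at 12 h than at 2 h. The 20 were picked by values of the 2 h libraries, which both contrasts share.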

How the results depend on the processing

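The numbers of calls moved with the tool and the libraries. Of the 7425 called unigenes, 17 or 18 had the opposite sign in the fits by limma, and 0 in the other fits by unigene. Leaving out single libraries gave 2049 to 3948 rises and 2055 to 3852 falls in place of 3706 and 3719; the fewest came without control replicate 1, and falls without the second heat 2 h library numbered 2210. Limma on log2(FPKM + 1) called 1966 rises and 1829 falls of 65305 unigenes tested. Without its filter these were 1300 and 1184, of which 1016 and 718 by at least 2-fold in place of 2156 and 1585, and with a pseudocount of 0.1 there were 2182 falls. Tested against a 2-fold minimum by glmTreat, 748 rises and 374 falls passed. Other scalings, DESeq2, count filters, component sums and the fit of 4 libraries kept these 4 counts within 1.5 times. With replicate number as a block there were 4489 rises and 4193 falls, and 7396 of the 7425 calls were made again. Same-numbered heat 2 h and control libraries did not deviate together (correlation 0.0078 across unigenes). The heat 12 h and heat 2 h libraries did, at 0.285, but with 2 pairs the numbers are not taken to pair the samples, and heat 12 h minus heat 2 h was tested without a block.

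The counts at 8-fold were recomputed by choice after seeing the data. Rises of at least 8-fold ranged from 233 to 1099 and falls from 67 to 614 over the alternatives, the highest with limma on log2(FPKM + 0.1), while without heat 2 h replicate 1 there were 138 such falls and 364 rises. With no filter on low counts these were 537 rises and 169 falls. The median log2 fold change of ranks 1 to 100 turned to -0.46, and that of the next 900 to -0.27, when controls set the rank in place of the 12 h libraries. Of 340 recomputed fold changes of the 20 described unigenes, 333 kept their call and 7, of the fourth gain, lost it; none changed sign. Depth limits the shallow classes, where only large changes could be called.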
